A study of Mus musculus with 18 samples.

Results

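Messenger RNA of the BCL2 family was followed in bone marrow-derived macrophages (BMDMs) through 10 genes, taken as the rows that carry their symbols among the 24485 genes listed for each of 18 libraries. They are the survival genes Bcl2, Bcl2l1 (Bcl-xL), Mcl1 and Bcl2a1b (A1), the BH3-only genes Bcl2l11 (Bim), Bmf, Bbc3 (Puma), Pmaip1 (Noxa) and Bid, and the pore former Bax. All 10 were found in every library. The BMDMs came from Il10-/- mice on the C57BL/6J background, so every group, controls included, lacked the gene for the cytokine interleukin 10 (IL-10), and no Il10-sufficient cells were among them. The 6 groups of 3 libraries were unstimulated cells, cells given JQ1, cells given IL-10, and the same 3 kinds of cells followed by lipopolysaccharide (LPS), the bacterial cell wall component that TLR4 recognises. JQ1, given as (+)-JQ1 at 500 nM, is a small molecule that keeps BET proteins off acetylated histones. IL-10 was given at 10 ng/mL. Both were added 12 hours ahead of LPS at 50 ng/mL or buffer, which lasted 4 hours. The labels call the cells that got neither agent untreated, whereas the methods name a vehicle before LPS. The labels describe the cultures as matched, and the replicate number was read as the mouse.

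Proteins of the BCL2 family decide whether the outer mitochondrial membrane is opened in apoptosis. BAX and BAK open it, the survival proteins hold BAX, BAK and the BH3-only proteins in check, and the BH3-only proteins release or activate the pore formers after stress, loss of growth factors or damage. Much of this control is exerted on the proteins, whereas only messenger RNA was measured here. In macrophages and other myeloid cells, A1 and MCL1 are known as survival proteins that inflammatory signals sustain.

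The genes are given by their GENCODE vM1 positions on mouse build mm9, the build to which the reads were aligned. Bcl2 lies on the minus strand at chr1:108434755-108610851, Bcl2l1 on the minus strand at chr2:152593052-152657464, and Mcl1 on the plus strand at chr3:95462643-95467099. Among the BH3-only genes, Bcl2l11 lies on the plus strand at chr2:127951774-127988283, Bmf on the minus strand at chr2:118354493-118375423, Bbc3 on the plus strand at chr7:16894965-16903554 and Bid on the minus strand at chr6:120841948-120866871. Bax lies on the minus strand at chr7:52717065-52722268. Bcl2a1b lies on the plus strand at chr9:89094047-89102665, near the copies Bcl2a1a (chr9:88851738-88857254, plus strand) and Bcl2a1d (chr9:88618126-88626708, minus strand), with Bcl2a1c farther along at chr9:114239253-114239696. Each value below is over the gene as a whole, with its isoforms added up.

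The copies of Bcl2a1 are shown first, because their likeness limits how surely reads can be given to Bcl2a1b. Over their coding sequences of 519 bases, Bcl2a1b and Bcl2a1d differed at 6 bases, Bcl2a1b and Bcl2a1a at 11, and Bcl2a1a and Bcl2a1d at 7. Of the 470 windows of 50 bases in the Bcl2a1b coding sequence, 246 (52.3%) also occurred in Bcl2a1d and 201 (42.8%) in Bcl2a1a. Bases 1 to 90 of the coding sequence on mm9 are printed, which hold 6 of the 12 positions at which the 3 copies vary. Capitals mark those positions.
Bcl2a1a: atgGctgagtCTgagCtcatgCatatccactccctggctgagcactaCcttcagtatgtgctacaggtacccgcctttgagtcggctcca
Bcl2a1b: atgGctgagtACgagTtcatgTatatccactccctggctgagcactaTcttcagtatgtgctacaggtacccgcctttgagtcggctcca
Bcl2a1d: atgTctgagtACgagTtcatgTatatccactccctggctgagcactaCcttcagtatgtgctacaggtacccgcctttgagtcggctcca

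The 250 bases before the RefSeq start of each copy (build GRCm38.p6) are printed next, because 3 of the copies rose with LPS while Bcl2a1c stayed at or near 0. Promoters of 9 of the 10 members were read from the RefSeq table. They were searched on both strands, overlaps allowed, for an NF-kB site of 10 bases, TGANTCA (AP-1), GTAAACA (FOXO), GAGGAAGT (PU.1) and CACGTG (an E-box). Of all 32851 promoter windows of that length, 1.41%, 6.75%, 3.17%, 2.44% and 6.02% held these motifs. Capitals mark matches. Bcl2a1b is at chr9:89199023-89199272 (plus strand), Bcl2a1a at chr9:88956670-88956919 (plus), Bcl2a1d at chr9:88731851-88732100 (minus) and Bcl2a1c at chr9:114329885-114330134 (plus).
Bcl2a1b: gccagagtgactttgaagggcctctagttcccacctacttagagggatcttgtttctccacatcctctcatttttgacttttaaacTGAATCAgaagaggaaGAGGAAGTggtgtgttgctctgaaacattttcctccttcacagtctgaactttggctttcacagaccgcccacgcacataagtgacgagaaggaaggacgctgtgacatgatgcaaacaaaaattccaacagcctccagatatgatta
Bcl2a1a: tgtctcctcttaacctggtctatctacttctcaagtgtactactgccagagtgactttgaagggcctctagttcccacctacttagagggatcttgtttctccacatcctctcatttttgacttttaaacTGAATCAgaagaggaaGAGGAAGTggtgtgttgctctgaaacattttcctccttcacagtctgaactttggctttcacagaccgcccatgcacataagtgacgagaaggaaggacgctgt
Bcl2a1d: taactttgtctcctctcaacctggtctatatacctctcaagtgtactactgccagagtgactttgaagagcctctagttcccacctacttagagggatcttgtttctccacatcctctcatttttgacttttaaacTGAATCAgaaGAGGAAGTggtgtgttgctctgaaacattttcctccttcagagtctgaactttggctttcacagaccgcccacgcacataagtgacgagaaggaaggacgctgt
Bcl2a1c: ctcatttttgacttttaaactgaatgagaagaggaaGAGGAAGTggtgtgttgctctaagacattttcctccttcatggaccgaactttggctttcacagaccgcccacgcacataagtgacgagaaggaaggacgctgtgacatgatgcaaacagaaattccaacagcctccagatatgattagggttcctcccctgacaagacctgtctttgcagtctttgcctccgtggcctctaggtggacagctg

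In these windows both TGANTCA and GAGGAAGT matched in Bcl2a1a, Bcl2a1b and Bcl2a1d, and GAGGAAGT alone matched in Bcl2a1c. Elsewhere in the family the NF-kB motif matched a window of Bcl2l1, of Mcl1 (28 to 19 bases before the start) and of Bbc3, GTAAACA a window of Bcl2l11 and of Bbc3, and CACGTG a window of Bbc3 and of Bax. The windows of Bcl2, Bmf and Bid held none of the 5. A match is a run of letters, and no binding was measured here.

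The libraries summed to between 6781952 and 28289498 expected counts, so that 3 counts, the floor used here, stand for 0.106 to 0.442 CPM. The 8 macrophage markers together reached 14316 to 29066 TPM (the deposited level per transcript length, relative to the library's total), all of them present in every library. Their summed level was 22971 to 24769 TPM in unstimulated cells, 28936 to 29066 with JQ1, 14316 to 15764 with LPS and 19578 to 22564 with LPS + JQ1. Lyz2, at 9722 to 24853 TPM over the libraries, made up most of that sum, whereas Fcgr1 ran from 9.92 to 495 TPM. The 6 neutrophil genes summed to 21.1 to 76.1 TPM in unstimulated cells, 6.76 to 13.9 with JQ1, 33.2 to 47.5 with LPS and 10.7 to 23.9 with LPS + JQ1. Ly6g was at 0 in all libraries and Elane and Mpo stood at no more than 0.15 TPM, so S100a8 and S100a9 made up most of that sum. The summed level was at most 9.77 TPM for 4 fibroblast genes, 5.13 for 4 B cell genes, 2.82 for 4 dendritic cell genes and 0.45 for 4 T cell and for 4 mast cell genes. The B cell genes summed to 2.34 to 5.13 TPM in unstimulated cells, 0.20 to 0.50 with JQ1, 0.89 to 1.53 with LPS and 0.10 to 0.68 with LPS + JQ1. Among them Cd79b reached 4.45 TPM and the others no more than 0.75. Reads were listed for the knocked-out gene Il10 in every library (3.20 to 14.6 TPM), and since the labels do not say which part is deleted they do not check the genotype. The ribosomal transcript Rn45s took 9.11% to 12.5% of the counts in libraries without LPS and 5.54% to 7.92% in those with LPS. Its part in the results was not tested.

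Per length, survival genes made up most of the family's transcripts in every group. The 10 genes together came to 868 to 961 TPM in unstimulated cells, 556 to 621 with JQ1 and 928 to 995 with IL-10. With LPS the sum was 3801 to 4988 TPM. It was 2350 to 2576 TPM for LPS + JQ1 and 3225 to 4353 TPM for LPS + IL-10. The sum thus separated LPS-stimulated from other cells, and JQ1 libraries from their controls, without overlap. The 4 survival genes held 70.6% ± 0.303 (SD, n = 3) of that sum in unstimulated cells, 53.7% ± 0.958 with JQ1 and 70.6% ± 0.483 with IL-10. After LPS they held 94.8% ± 0.577, 89.0% ± 0.542 if JQ1 had preceded it and 93.6% ± 1.14 if IL-10 had. Most of this shift was Bcl2a1b, at 33.5% ± 2.97 of the family in unstimulated cells and 84.1% ± 1.5 after LPS. In unstimulated cells Bcl2a1b and Mcl1 stood at like levels per length (308 ± 20.8 and 298 ± 40.9 TPM). With JQ1 alone Bcl2a1b was at 47.9 ± 7.65 TPM and Mcl1, at 244 ± 11.6 TPM, was the most abundant member. The 5 BH3-only genes together stayed between 116 ± 9.53 TPM (LPS) and 155 ± 2.84 TPM (IL-10) over the 6 group means. The ratio of survival to BH3-only TPM was 4.89 ± 0.291 in unstimulated cells, 2.27 ± 0.156 with JQ1, 34.6 ± 2.56 with LPS and 15.9 ± 0.451 with LPS + JQ1. With Bcl2a1b left out the same ratios were 2.57 ± 0.230, 1.93 ± 0.106, 3.91 ± 0.0938 and 2.62 ± 0.137, a much narrower range. These shares and ratios leave out the copies Bcl2a1d and Bcl2a1a, at 1571 ± 245 and 301 ± 67.3 TPM with LPS. They therefore rest on an estimated split of reads between near-identical copies.

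**Figure D1:**
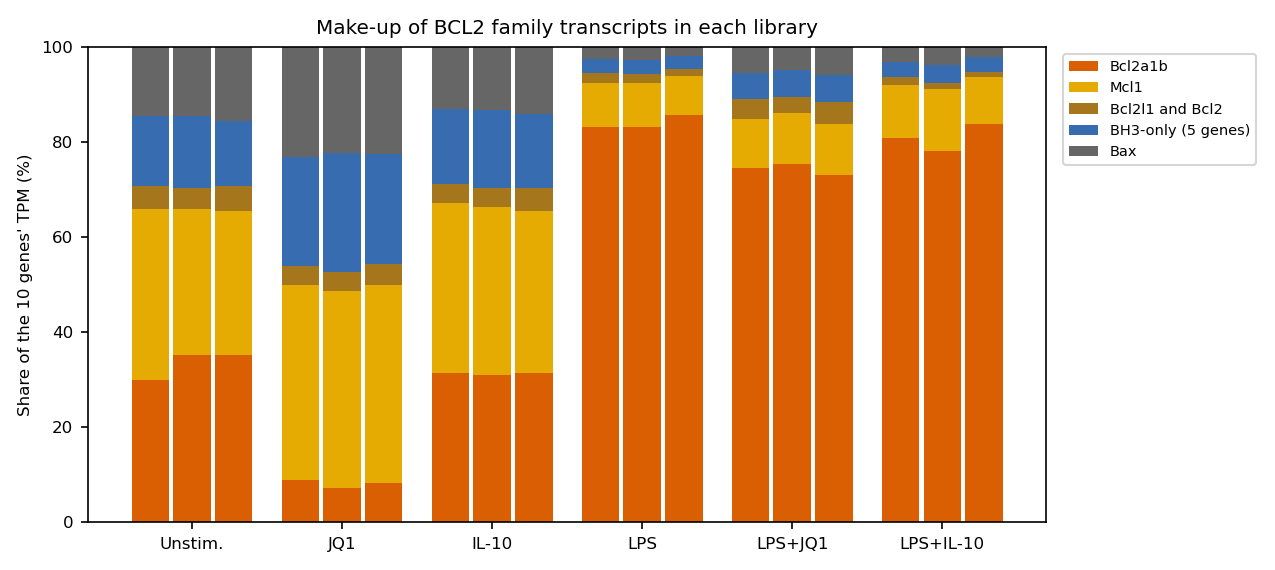
Share of the summed TPM of the 10 genes (vertical axis, percent) by group and library, with colours for the members and groups of members. Bcl2a1b fills 83.1% to 85.8% of each LPS bar, 73.1% to 75.4% of each LPS + JQ1 bar and 7.14% to 8.84% of each JQ1 bar.

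Differences were tested with the Wald test of DESeq2 on rounded expected counts, with p-values adjusted by Benjamini-Hochberg over all genes and 0.05 as the threshold. Normalised counts are counts divided by the library's median-of-ratios size factor. They are relative to the bulk of genes in the same library, and in bulk RNA fewer cells of a type and less RNA per cell cannot be told apart. The comparisons share groups, LPS cells above all, and their values are set side by side without a test of their likeness. LPS against unstimulated cells changed 9 of the 10 members, 6 higher and 3 lower, beside 63.1% of all 15285 genes tested (30.8% higher, 32.2% lower). JQ1 against untreated cells during LPS changed 7, 3 higher and 4 lower, beside 57.3% of genes (24.4% and 32.9%). IL-10 against untreated cells during LPS changed 4, 1 higher and 3 lower, beside 15.7% (7.67% and 8.02%). Without LPS, JQ1 changed 5 members, 3 higher and 2 lower, beside 44.4% (21.3% and 23.1%), and IL-10 changed 1 of the 9 members tested, which was higher, beside 3.96% (2.5% higher, 1.47% lower). JQ1 and IL-10 during LPS differed at 8 members, 5 higher with JQ1 and 3 lower, beside 55.3% (23.8% and 31.6%). In cells given JQ1, LPS changed 9 members, 5 higher and 4 lower, beside 57.1% (27% and 30.2%), and in cells given IL-10 all 10, 6 higher and 4 lower, beside 62.5% (31% and 31.5%). The libraries of the compared groups did not overlap for 9 members with LPS (67.9% of genes tested), 7 with JQ1 during LPS (61.8%), 5 with IL-10 during LPS (25.2%), 7 with JQ1 alone (57.6%) and 3 with IL-10 alone (18.7%). For JQ1 against IL-10 during LPS this held for 8 members (59.7%), and for LPS in cells given JQ1 or IL-10 for 8 (64.9%) and 10 (68%). With so many genes called, the members are described singly below.

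The split into higher and lower depends on how libraries are scaled. Relative to each library's total, the median log2 fold change over 12251 genes with LPS was -0.997, against -0.07 with size factors and -0.63 on the log2(TPM + 1) scale, and 20.1% of the calls with LPS were higher, against 48.9% with size factors and 23.2% by limma on TPM. The members then split 4 higher and 5 lower with totals and 5 and 5 by limma. Each member's log2 value with LPS was lower by 0.93 with totals. For JQ1 during LPS the higher calls made up 42.5% with size factors, 64.9% with totals and 61.9% by limma, and the members split 6 higher and 3 lower with totals and 4 and 3 by limma. For IL-10 during LPS these shares were 48.9%, 71.1% and 74.7%, with 1 member higher and 2 lower by totals and 0 and 2 by limma. For JQ1 without LPS they were 48%, 26.7% and 24.3%, with 0 members higher and 3 lower by totals and by limma. For IL-10 without LPS the share was 63% with size factors and 83.3% by limma, which called 0 members at an adjusted p under 0.05 and 3 at an unadjusted one. For JQ1 against IL-10 during LPS the shares were 42.9%, 61.2% and 57%, with 6 members higher and 3 lower by totals and 5 and 3 by limma. For LPS they were 47.2%, 25.6% and 30.1% in JQ1-treated cells, with 3 members higher and 4 lower by totals and by limma, and 49.6%, 21% and 22.9% in IL-10-treated cells, with 3 and 5 by totals and 4 and 5 by limma.

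**Figure D2:**
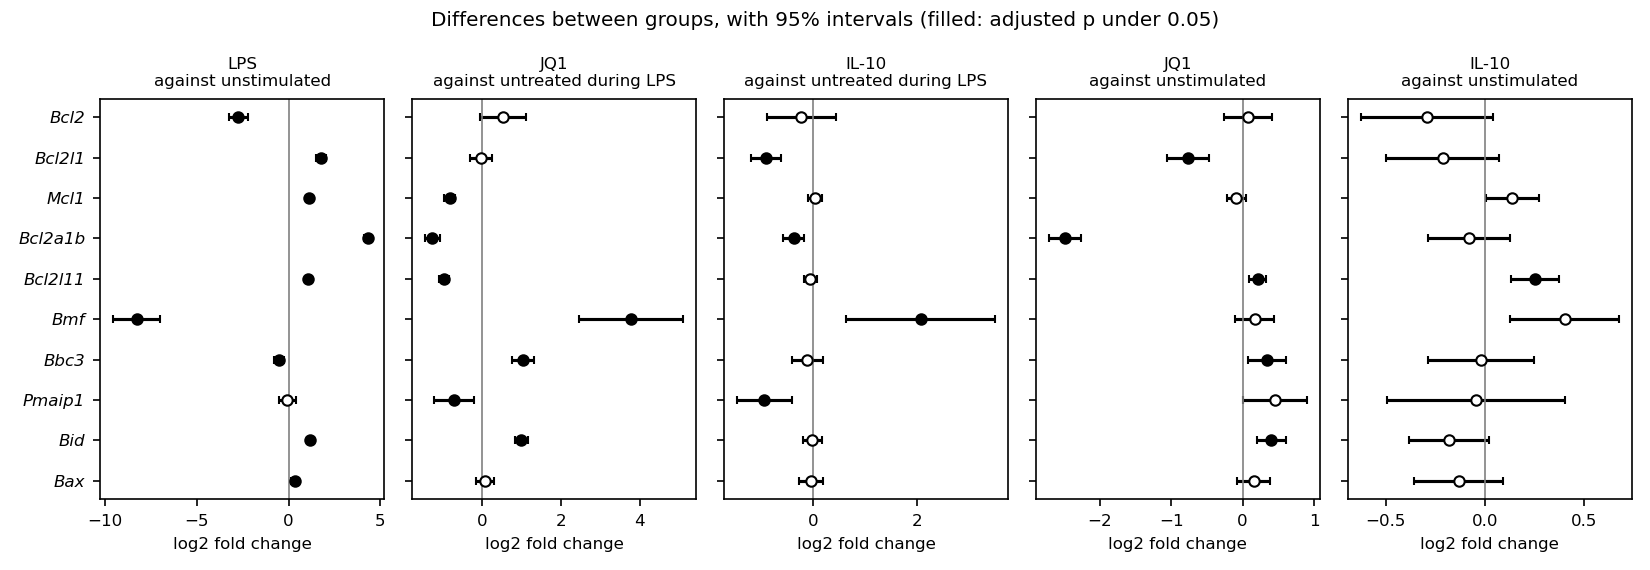
Log2 fold change (horizontal axes, with 95% intervals, n = 3 libraries a group) of the 10 genes in 5 comparisons, one per panel, with filled points for an adjusted p under 0.05. With LPS values run from -8.30 (Bmf) to 4.31 (Bcl2a1b), and for IL-10 without LPS from -0.29 (Bcl2) to 0.40 (Bmf).

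Bcl2a1b encodes A1, a short-lived survival protein. Its normalised counts were 1177, 1329 and 1353 in unstimulated cells and 23941, 24413 and 28353 with LPS, with no overlap. This was a 19.9-fold rise (log2 4.31, SE 0.10, adjusted p given as 0 by DESeq2). LPS + JQ1 libraries held 10535, 10897 and 10366, all below the LPS libraries and above the unstimulated ones. During LPS, JQ1 lowered Bcl2a1b 2.41-fold (log2 -1.27, SE 0.10, adjusted p = 2.25e-35). Without LPS the values with JQ1 were 256, 196 and 234, a 5.61-fold drop from unstimulated cells (log2 -2.49, SE 0.12, adjusted p = 3.04e-100). The drop with JQ1 was smaller in LPS-stimulated cells, by 1.22 on the log2 scale (SE 0.15, adjusted p = 3.77e-14). Seen from the other side, LPS raised Bcl2a1b 46.3-fold in cells given JQ1. With LPS + IL-10 the counts were 19904, 17022 and 22529, each below the 3 LPS libraries (log2 -0.37, SE 0.10, adjusted p = 0.0028). That call was lost when libraries were scaled by totals (adjusted p = 0.0592), by limma (0.22) and with only the groups compared in the fit (0.0678). IL-10 alone gave 1222, 1193 and 1233, within the unstimulated range (log2 -0.08, adjusted p = 0.979). The summed levels of the neutrophil and of the B cell genes given above were also lower with JQ1, and that of the macrophage markers higher. These sums rest mostly on S100a8 and S100a9, on Cd79b and on Lyz2, and do not show that each marker moved alike. Their part in the Bcl2a1b result was not tested.

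The copies Bcl2a1d and Bcl2a1a were low without LPS and high with it. Bcl2a1d stood at 10.3 to 17.97 TPM in unstimulated cells and at 1417 to 1854 TPM with LPS (normalised counts 198-fold higher, log2 7.63, SE 0.17, adjusted p given as 0). Bcl2a1a stood at 1.05 to 4.27 TPM and at 261 to 379 TPM (197-fold higher, log2 7.63, SE 0.28, adjusted p = 5.47e-161). JQ1 during LPS brought Bcl2a1d to 300 to 358 TPM (log2 -2.56, SE 0.13, adjusted p = 6.76e-84) and Bcl2a1a to 37.6 to 42.4 TPM (log2 -3.20, SE 0.16, adjusted p = 6.11e-83). The ranges with LPS and with LPS + JQ1 did not overlap for either copy. Of the summed TPM of the copies, Bcl2a1b held 95.1% ± 1.97 in unstimulated cells, 65.7% ± 0.373 with LPS and 83.3% ± 0.416 with LPS + JQ1. The effect of JQ1 on Bcl2a1d differed by -0.08 with and without LPS, with a 95% interval of -0.72 to 0.55 (adjusted p = 0.87), whereas for Bcl2a1b it differed as given above. IL-10 lowered Bcl2a1d during LPS (log2 -0.45, SE 0.13, adjusted p = 0.00529) and without it (log2 -0.72, SE 0.20, adjusted p = 0.0114), and its value for Bcl2a1a during LPS was -0.19 (adjusted p = 0.526). Bcl2a1c was at 0 in all libraries without LPS and at no more than 0.84 TPM with LPS, at or under the floor. Because reads of near-identical copies are divided by estimation, the values of each copy are uncertain. With the counts of the copies added up in place of Bcl2a1b, 9 members were called with LPS (6 higher, 3 lower) and 7 with JQ1 during LPS (3 higher, 4 lower), as before. The sizes moved. Summed normalised counts were 1356 ± 73.3 in unstimulated cells, 39666 ± 3732 with LPS and 12846 ± 380 with LPS + JQ1. For Bcl2a1b alone the means were 1287, 25569 and 10599, so the summed rise with LPS and the summed drop with JQ1 were larger.

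**Figure D3:**
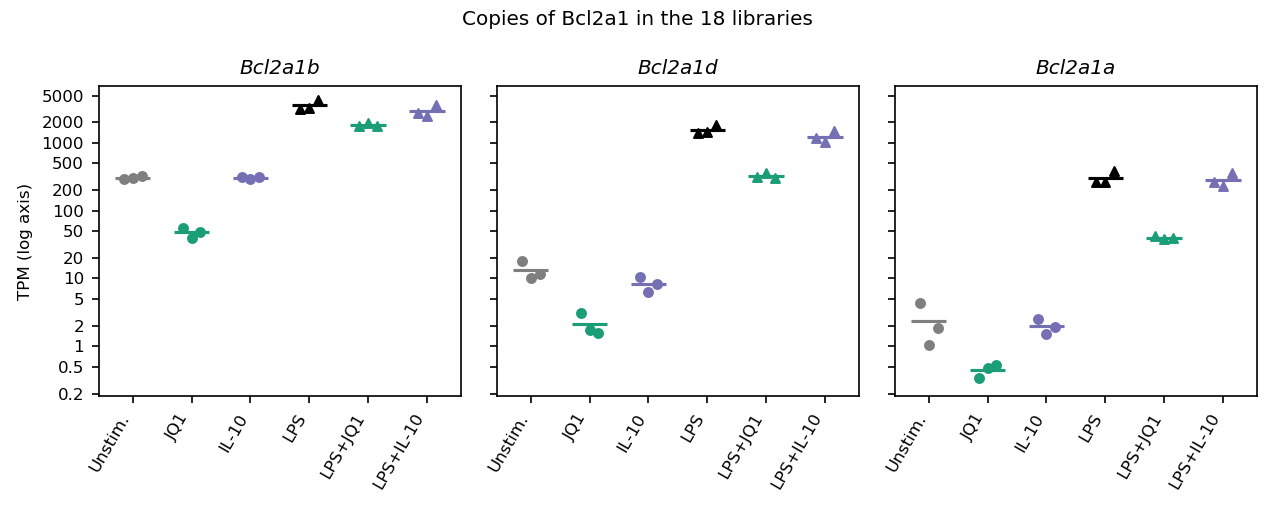
TPM (vertical log axis) of Bcl2a1b, Bcl2a1d and Bcl2a1a in each of the 18 libraries, with circles for no LPS, triangles for LPS and a bar at the mean of 3. Bcl2a1b reached 3165 to 4279 TPM with LPS and Bcl2a1a 261 to 379, whereas with JQ1 alone they stood at 39.7 to 54.9 and 0.34 to 0.53.

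Mcl1 encodes MCL-1, a short-lived survival protein that holds BAK and BIM. Its normalised counts were 8186, 6660 and 6662 in unstimulated cells and 15364, 15295 and 15270 with LPS. With LPS + JQ1 they were 8442, 8771 and 8582, below every LPS library. LPS raised Mcl1 2.13-fold (log2 1.09, SE 0.07, adjusted p = 2.94e-57), or by 0.17 with totals (adjusted p = 0.0323), and JQ1 during LPS lowered it to 0.562-fold (log2 -0.83, SE 0.07, adjusted p = 2.14e-33). Without LPS, JQ1 gave 6939, 6679 and 6643, overlapping the unstimulated range (log2 -0.09, 95% interval -0.22 to 0.05, adjusted p = 0.315), though with totals the difference passed (log2 -0.26, adjusted p = 0.0013), as it did by limma (-0.28, 0.0127). LPS raised Mcl1 1.27-fold in cells given JQ1 (log2 0.35, adjusted p = 1.06e-06), but not with totals (-0.026). The difference of the JQ1 effects with and without LPS was -0.75 (SE 0.10, adjusted p = 1.88e-13), which was lost with totals (-0.19, adjusted p = 0.111) and by limma (-0.24, 0.105). LPS + IL-10 libraries (15777, 15924 and 15644) lay just above the LPS libraries, a difference of 0.04 on the log2 scale (95% interval -0.09 to 0.18, adjusted p = 0.786). Per length Mcl1 went from 298 ± 40.9 TPM in unstimulated cells to 372 ± 26.6 TPM with LPS. IL-10 alone gave log2 0.14 (adjusted p = 0.396), and 0.25 (adjusted p = 2.28e-06) without unstimulated replicate 1, the library with the highest Mcl1 count of that group.

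Bcl2l1 encodes Bcl-xL, a survival protein that binds BAX, BAK and BH3-only proteins. It held 741, 639 and 776 normalised counts in unstimulated cells and 2640, 2448 and 2257 with LPS (3.4-fold higher, log2 1.76, SE 0.14, adjusted p = 1.34e-33, and 0.83 with totals). LPS + IL-10 held 1656, 1134 and 1157, all below LPS alone, and IL-10 lowered Bcl2l1 during LPS to 0.537-fold (log2 -0.90, SE 0.14, adjusted p = 1.48e-08). LPS + JQ1 held 2551, 1996 and 2654, which overlapped LPS alone (log2 -0.03, 95% interval -0.31 to 0.25, adjusted p = 0.885), while relative to library totals that difference was 0.35 (adjusted p = 0.0205). JQ1 and IL-10 during LPS differed at this gene, 1.82-fold higher with JQ1 (log2 0.87, SE 0.14, adjusted p = 5.52e-09). Without LPS the agents stood in another order. JQ1 gave 412, 386.4 and 473, below every unstimulated library (log2 -0.77, SE 0.15, adjusted p = 1.44e-06), and IL-10 gave 593, 592 and 683, overlapping them (log2 -0.21, adjusted p = 0.715). The effects of both agents differed with and without LPS, by 0.74 for JQ1 (SE 0.21, adjusted p = 0.00131) and by -0.68 for IL-10 (SE 0.20, adjusted p = 0.016). The IL-10 difference was lost without unstimulated replicate 2 (adjusted p = 0.0661), IL-10 replicate 3 (0.0743), LPS replicate 1 (0.0637) or LPS + IL-10 replicate 2 (0.0782).

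Bcl2, the founding survival gene of the family, was scarce. Its normalised counts were 140, 115 and 138 in unstimulated cells and 18.4, 16.5 and 24.6 with LPS, a 6.73-fold drop (log2 -2.75, SE 0.26, adjusted p = 1.73e-25). On the per-length scale this was 3.25 ± 0.691 against 0.42 ± 0.0529 TPM. Few counts were held by cells given JQ1 before LPS (24.3, 28.4 and 33.2) and by those given IL-10 (17.6, 9.12 and 21.6). Neither passed the test against LPS alone (log2 0.53 and -0.22, adjusted p = 0.118 and 0.787), although the JQ1 value was called by edgeR (log2 0.63, adjusted p = 0.0389) and with totals (0.91, 0.00527). LPS + JQ1 exceeded LPS + IL-10 (log2 0.75, SE 0.31, adjusted p = 0.0303), but not without LPS + JQ1 replicate 2 (0.0541) or 3 (0.106), without LPS + IL-10 replicate 1 (0.0544) or 2 (0.182), with a length offset (0.0566), with only the groups compared in the fit (0.123) or by limma (0.0897). Without LPS neither agent passed the test (log2 0.07 with JQ1 and -0.29 with IL-10, adjusted p = 0.783 and 0.567).

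Bmf encodes a BH3-only protein known for its tie to the cytoskeleton, and its RNA was almost gone after LPS. Normalised counts were 704, 634 and 562 in unstimulated cells and 4.24, 1.03 and 1.23 with LPS. The 3 LPS libraries together held 5 counts, against 2126 in unstimulated cells, a ratio of 313-fold lower with a 95% exact counting interval of 134 to 965 (log2 -8.30, SE 0.66, adjusted p = 1.71e-35). With JQ1 before LPS the libraries held 29.8, 30.5 and 22.2, and with IL-10 before LPS 6.77, 15.2 and 5.41. Each of these 6 libraries lay above the 3 LPS libraries and far below those without LPS. LPS + JQ1 held 74 counts in all and LPS + IL-10 held 21, so that Bmf was 13.8-fold (5.66 to 43.8) and 4.17-fold (1.53 to 14.2) above LPS alone. The JQ1 difference passed the test (log2 3.78, SE 0.68, adjusted p = 9.54e-08), also without LPS replicate 1, where it was 24.6-fold (adjusted p = 3.07e-05). Without that library the drop with LPS came to 563-fold. The IL-10 difference (log2 2.07, SE 0.73, adjusted p = 0.0322) did not hold without LPS replicate 1 (7.52-fold, adjusted p = 0.0507), 2 (0.161) or 3 (0.119), without LPS + IL-10 replicate 2 (0.235), or by edgeR (0.0547) and limma (0.334). LPS + JQ1 exceeded LPS + IL-10 3.31-fold (2.02 to 5.66, adjusted p = 2.08e-05). Without LPS the counts were 808, 740 and 585 with JQ1, overlapping the unstimulated libraries (log2 0.17, adjusted p = 0.356), and 870, 878 and 761 with IL-10. The latter lay above all unstimulated libraries, short of the threshold (log2 0.40, SE 0.14, adjusted p = 0.0851), and passed without unstimulated replicate 1 (0.49, adjusted p = 0.0476), with lane as a term (0.40, 0.00241) and with only those groups in the fit (0.41, 0.00371). The effect of JQ1 differed with and without LPS by 3.61 (SE 0.69, adjusted p = 1.39e-06), and by 4.46 without LPS replicate 1.

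Bcl2l11 encodes BIM, a BH3-only protein that binds all the survival proteins. It was the most abundant BH3-only gene per length in unstimulated cells (63.0 ± 1.65 TPM). Normalised counts were 2158, 2180 and 2023 in unstimulated cells, 4251, 4292 and 4594 with LPS, and 2271, 2364 and 2045 with LPS + JQ1. The LPS + JQ1 libraries overlapped the unstimulated ones, and every LPS library lay above both. LPS raised Bcl2l11 2.07-fold (log2 1.05, SE 0.06, adjusted p = 2.51e-65), a call lost with totals (log2 0.12, adjusted p = 0.0895). JQ1 during LPS lowered it to 0.509-fold (log2 -0.97, SE 0.06, adjusted p = 7.83e-56), whereas IL-10 (4171, 4126 and 4434) left a difference of -0.04 with a 95% interval of -0.16 to 0.07 (adjusted p = 0.747). Without LPS the counts were 2469, 2527 and 2353 with JQ1 (log2 0.21, SE 0.06, adjusted p = 0.00203) and 2552, 2533 and 2481 with IL-10 (log2 0.25, SE 0.06, adjusted p = 0.002), all above the unstimulated libraries. The JQ1 call was lost with totals (log2 0.03, adjusted p = 0.744) and by limma (0.01, 0.938). The IL-10 call was lost without unstimulated replicate 3 (adjusted p = 0.0589), by edgeR (0.0561) and by limma (0.128). In cells given JQ1 the change of Bcl2l11 with LPS was -0.14 (adjusted p = 0.0469), with overlapping libraries. That call was lost with mouse as a replicate block (adjusted p = 0.0595), with TMM factors (0.239), with a length offset (0.159) and by edgeR (0.228). It was also lost with a lane term (0.0783) and with only the groups compared in the fit (0.385). Leaving out JQ1 replicate 1 (0.116) or 2 (0.175) or LPS + JQ1 replicate 1 (0.0616) or 3 (0.266) lost it too. The effect of JQ1 differed with and without LPS by -1.19 (SE 0.09, adjusted p = 2.32e-40). For IL-10 this difference was -0.30 (SE 0.09, adjusted p = 0.0107), and was lost without unstimulated replicate 3 (0.0663), IL-10 replicate 1 (0.0508), LPS replicate 3 (0.0544) or LPS + IL-10 replicate 2 (0.0536), with totals (0.203), by edgeR (0.0728) and by limma (0.424).

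Bid encodes a BH3-only protein that caspase-8 cleaves into its active form. Its normalised counts were 236, 183 and 198 in unstimulated cells, 478, 494 and 452 with LPS, and 919, 967 and 942 with LPS + JQ1. The 3 groups did not overlap. LPS raised Bid 2.28-fold (log2 1.19, SE 0.10, adjusted p = 4.72e-32), which was 0.26 (adjusted p = 0.0176) with totals and 0.41 (0.000835) by limma, and JQ1 raised it a further 1.98-fold during LPS (log2 0.99, SE 0.09, adjusted p = 1.01e-28). LPS + IL-10 (498, 459 and 461) overlapped LPS alone (log2 -0.01, 95% interval -0.19 to 0.17, adjusted p = 0.971). JQ1 without LPS gave 289, 263 and 273, all above the unstimulated libraries (log2 0.40, SE 0.10, adjusted p = 0.00035), a call lost with totals (log2 0.22, adjusted p = 0.0778) and by limma (0.21, 0.0832). The effect of JQ1 was larger with LPS, by 0.59 (SE 0.13, adjusted p = 6.53e-05). On the per-length scale Bid with LPS + JQ1 stood at 54.7 ± 3.70 TPM and Bcl2l11 at 49.1 ± 4.44 TPM, with overlapping ranges.

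Bbc3 encodes PUMA, a BH3-only protein best known as a target of p53. It held 409, 431 and 351 normalised counts in unstimulated cells and 318, 282 and 217 with LPS (1.45-fold lower, log2 -0.54, SE 0.14, adjusted p = 0.000335). With totals this drop was larger (log2 -1.46, adjusted p = 2.31e-28), as it was by limma (-1.26, 3.95e-09). LPS + JQ1 held 501, 555 and 611, above every library of both other groups. JQ1 raised Bbc3 2.04-fold during LPS (log2 1.03, SE 0.14, adjusted p = 1.58e-12), and in JQ1-treated cells LPS left a difference of 0.15 (95% interval -0.11 to 0.42, adjusted p = 0.342). LPS + IL-10 (283, 257 and 225) overlapped LPS alone (log2 -0.10, adjusted p = 0.768). JQ1 without LPS gave 436, 566 and 497 (log2 0.34, SE 0.14, adjusted p = 0.0304), all above the unstimulated libraries. That call was lost without unstimulated replicate 1 (0.0519) or 3 (0.185), without JQ1 replicate 2 (0.174) or 3 (0.0669), with totals (log2 0.16, adjusted p = 0.311) and by limma (0.12, 0.346). The effect of JQ1 was larger with LPS by 0.69 (SE 0.20, adjusted p = 0.00165).

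Pmaip1 encodes NOXA, a BH3-only protein that binds MCL-1 and A1, and it was scarce (0.54 to 4.47 TPM over all libraries). Normalised counts were 55.5, 76.1 and 71.1 in unstimulated cells and 56.6, 49.6 and 85.9 with LPS, which overlapped (log2 -0.06, 95% interval -0.54 to 0.41, adjusted p = 0.85). With totals LPS lowered it (log2 -0.99, adjusted p = 7.94e-05), by as much as the median gene, and it was lower by limma (-0.63, 0.00262). LPS + JQ1 held 44.2, 34.8 and 36.9 and LPS + IL-10 held 42.0, 15.2 and 40.6, all below LPS alone. JQ1 lowered Pmaip1 during LPS (log2 -0.73, SE 0.26, adjusted p = 0.0113), but not without LPS replicate 3 (adjusted p = 0.167), without LPS + JQ1 replicate 2 (0.0511), with totals (0.26), by limma (0.189) or with only the groups compared in the fit (0.095). IL-10 lowered it too (log2 -0.93, SE 0.27, adjusted p = 0.00625), but not without LPS replicate 3 (0.123), without LPS + IL-10 replicate 2 (0.116) or with only the groups compared (0.126). Without LPS, JQ1 gave 88.2, 95.6 and 90.7, above the unstimulated libraries but short of the threshold (log2 0.45, SE 0.23, adjusted p = 0.0957). The effect of JQ1 differed with and without LPS by -1.18 (SE 0.35, adjusted p = 0.00261), which was lost with totals (-0.63, adjusted p = 0.127) and by limma (-0.46, 0.117).

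Bax, whose product forms pores once it is activated, differed little under size-factor scaling. It held 678, 653 and 707 normalised counts in unstimulated cells and 872, 957 and 778 with LPS (log2 0.35, SE 0.12, adjusted p = 0.00399), yet relative to totals it was lower with LPS (log2 -0.57, adjusted p = 1.35e-06). It was also lower in TPM (138 ± 9.89 against 102 ± 6.96), which are likewise relative to the library's total. With a length offset and size factors Bax was still called with LPS. Its direction with LPS depends on the scaling. JQ1 during LPS gave 906, 825 and 990 (log2 0.06, 95% interval -0.17 to 0.28, adjusted p = 0.697) and IL-10 gave 896, 982 and 691 (log2 -0.03, 95% interval -0.26 to 0.20, adjusted p = 0.925), both overlapping LPS alone. With totals the JQ1 difference was 0.43 (adjusted p = 0.000392). In cells given JQ1, LPS raised Bax (log2 0.26, SE 0.11, adjusted p = 0.0404). That call was lost with a lane term (0.0584), without JQ1 replicate 2 (0.129) or 3 (0.0914), and without LPS + JQ1 replicate 1 (0.0917) or 3 (0.208). Without LPS, JQ1 gave 792, 727 and 750, above all unstimulated libraries, and IL-10 gave 607, 607 and 651, below them, and neither passed the test (log2 0.15 and -0.13, adjusted p = 0.295 and 0.878).

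**Figure D4:**
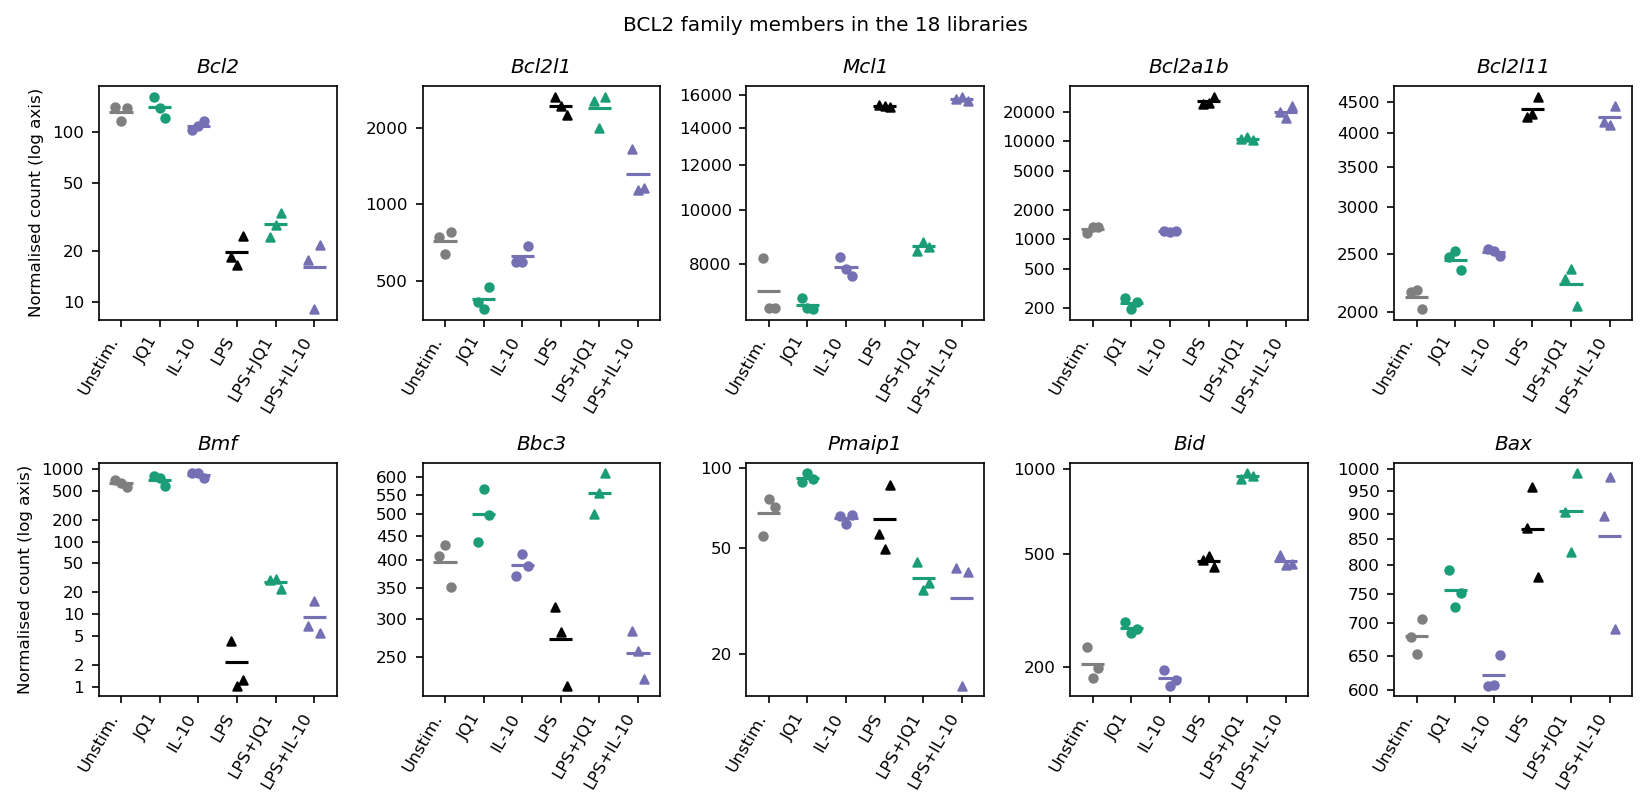
Normalised counts (vertical log axes, each with its own range) of the 10 genes in each of the 18 libraries, with circles for no LPS, triangles for LPS and a bar at the mean of 3. In the Bmf panel the LPS libraries sit at 1.03 to 4.24 and the LPS + JQ1 libraries at 22.2 to 30.5, and in the Bid panel the LPS + JQ1 libraries, at 919 to 967, lie above all others.

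Set side by side, the tests of the difference with and without LPS passed for 8 members with JQ1, beside 40.3% of 13046 genes, 5 with a higher and 3 with a lower effect in LPS-stimulated cells (17.2% and 23.1% of genes). With IL-10 they passed for 2, both lower, beside 6.6% of 12087 genes (3.57% higher, 3.03% lower). For JQ1, 42.7% of these calls over all genes were higher with size factors, 54.7% with TMM factors, 54.5% by edgeR, 85.5% with totals and 82.4% by limma, and the members split 7 and 1 with totals and 6 and 1 by limma. For IL-10 the share was 54.1% with size factors and 73.7% with totals, and totals, edgeR and limma each called 1 member, lower. In terms of the LPS response, Bcl2a1b, Bcl2l1 and Bid rose more in JQ1-treated cells (log2 5.53, 2.50 and 1.78) than in untreated cells (4.31, 1.76 and 1.19). The copies Bcl2a1d and Bcl2a1a rose by 7.54 and 6.84 in JQ1-treated cells and by 7.63 each in untreated cells. Neither difference was called (adjusted p = 0.87 and 0.342). With the copies added up in place of Bcl2a1b the difference was still called. Bmf fell less in JQ1-treated cells (-4.68 against -8.30). Mcl1 rose less (0.35 against 1.09), a difference lost with totals and by limma as given above.

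**Figure D5:**
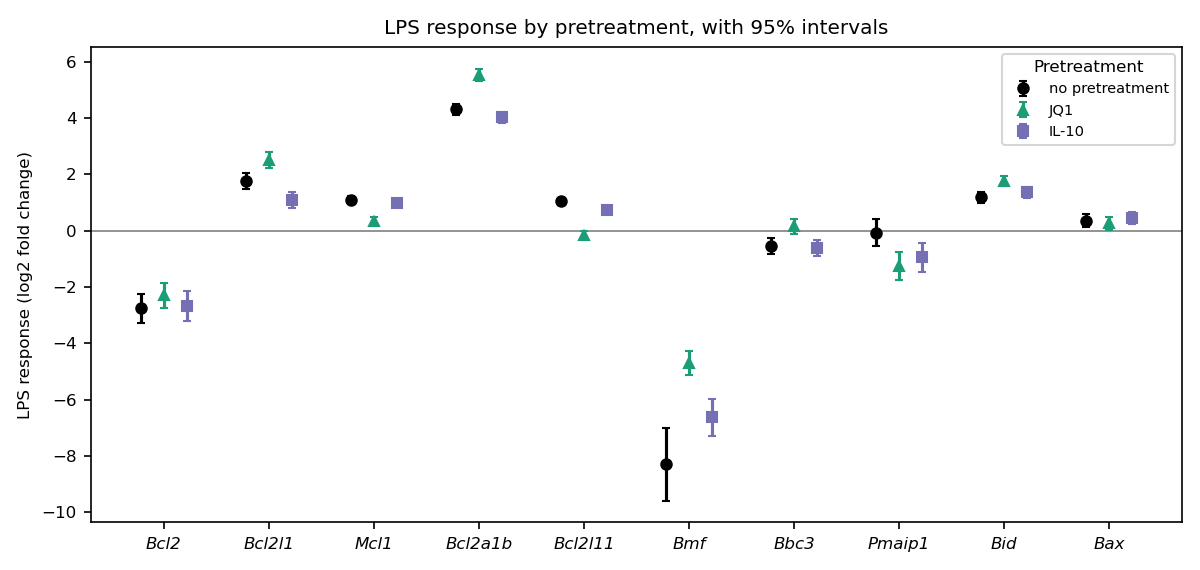
LPS response (log2 fold change of normalised counts, with 95% intervals) of the 10 genes in cells with no pretreatment, with JQ1 and with IL-10, 3 libraries a group. For Bcl2l11 the response is 1.05, -0.14 and 0.75, and for Bmf -8.30, -4.68 and -6.63.

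Around these 10, other genes of the pathway were taken from 3 lists. Of 16 other genes with BCL2 homology, 14 were tested with LPS, and 5 rose and 4 fell, where 63.1% of all genes tested were called (median log2 fold change 0.48, beside -0.06 over all genes tested). The largest rise was that of Bcl2a1d and the largest fall that of the mitophagy gene Bnip3l (log2 -1.07, SE 0.10, adjusted p = 1.82e-25). With JQ1 during LPS 11 were tested, of which 3 rose and 4 fell, where 57.3% of all genes were called (median 0.03, beside -0.11), with Bnip3l up (log2 1.008, SE 0.10, adjusted p = 3.93e-22) and Bcl2a1a falling most. Bak1, the other pore former, chosen after its values were seen, rose with LPS (log2 1.37, adjusted p = 2.23e-39) and fell with JQ1 during LPS (log2 -0.77, adjusted p = 2.65e-13). Of 16 genes of caspase activation, 9 rose and 6 fell with LPS (median 0.44). Casp9, the caspase started by the apoptosome, fell from 661 ± 18.9 to 102 ± 2.26 normalised counts (log2 -2.69, adjusted p = 7.67e-121). JQ1 during LPS raised 4 and lowered 8 of them (median -0.31), with Casp9 up at 246 ± 9.96 (log2 1.27, adjusted p = 9.54e-24) and Birc3, an inhibitor of apoptosis, down from 6125 ± 265 to 2409 ± 59.7 (log2 -1.35, adjusted p = 1.14e-31). Of 12 regulators of the family, 7 rose and 5 fell with LPS (median 0.52). Mdm2, which restrains p53, rose from 1096 ± 39.4 to 2967 ± 2.27 (log2 1.44, adjusted p = 4.43e-127), and Foxo3, a transcription factor, fell from 1587 ± 205 to 99.7 ± 25.0 (log2 -4.00, adjusted p = 8.47e-177). With JQ1 during LPS 6 rose and 2 fell (median 0.25), with Foxo3 up at 494 ± 26.9 (log2 2.32, adjusted p = 1.3e-56) and Mdm2 down at 1356 ± 92.4 (log2 -1.13, adjusted p = 2.59e-79). With IL-10 during LPS 3 of 10, 5 of 16 and 1 of 12 tested genes of these lists were called, beside 15.7% of all genes. All values of these lists are under size-factor scaling and were not taken under another. With totals the members' log2 values shifted by -0.93 with LPS and by 0.37 to 0.38 for JQ1 during LPS. The direction of the list medians may therefore depend on the scaling.

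Over the 18 libraries, the genes whose log2(TPM + 1) followed a member most closely by Pearson correlation, among 8378 genes, were Zfhx3 and Lrp1 for Bmf (r = 0.998 and 0.996), Anp32a and Maml2 for Bcl2a1b (0.993 and 0.992), and Mfsd13a and C2cd2l for Bbc3 (0.991 and 0.985). They were Usp10 and Atf4 for Bid (0.984 and 0.978), Hadh and 2610507B11Rik for Bcl2 (0.974 and 0.974), 5430427O19Rik and Igsf6 for Mcl1 (0.972 and 0.965), Plscr1 and Cd83 for Bcl2l1 (0.949 and 0.947), and Cdc42ep3 and Kif13b for Pmaip1 (0.948 and 0.945). For Bax they were Hnrnpa0 and Lrrc14 (0.940 and 0.922) and for Bcl2l11 Ddx17 and Cpeb3 (0.932 and 0.932). The points share their libraries and scaling and fall apart by LPS, so these values describe likeness across the 6 groups and carry no test.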

How the data were processed

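Stranded, ribosomal RNA-depleted libraries were sequenced by the authors as paired ends, aligned to mm9 with STAR and quantified with RSEM 1.2.31, per the labels and the methods of the study. The deposited expected counts are RSEM estimates, in which reads with more than a single match are shared out by estimation. They were not whole for 5.40% to 6.63% of genes and were rounded. The deposited TPM values are the authors' levels per length, relative to each library's total. RSEM was run with default settings, so overlapping genes may share reads.

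All 18 libraries were fitted together in DESeq2 1.42.0 (R 4.3.3) with group as the only term. The test was also run with the replicate number as a block, since the labels call the cultures matched. Deviations of same-numbered libraries from their group means correlated at -0.0331 to 0.243 on average per comparison. Replicates 1 and 3 were run on lanes 7 and 8, and replicate 2 on lane 7 without LPS and lane 8 with it. Alternatives were TMM and total-count scaling, a length offset, a low-count filter, edgeR 4.0.16, limma 3.58.1 on log2(TPM + 1), the compared groups alone, a lane term, and each library left out. On simulated counts DESeq2 let more unchanged genes pass than its nominal rate, and the limit this step had to meet was relaxed after that was seen, so edgeR is given as an alternative. In the main fit, p-values rest on the spread between the 3 cultures within a group, estimated jointly over all 6 groups. The matching of cultures enters only the fit with a block. Counting intervals and the floor of 3 counts cover counting error only.

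The members, lists, markers and motifs were chosen with earlier results of these data known. Named genes are the members, the copies of Bcl2a1, Il10, the called genes with the largest rise and fall of each list with LPS and with JQ1 during LPS (mean normalised count of at least 50, same direction in all 3 pairs), and the 2 genes most like each member (mean of at least 100). Bak1 was added after its values were seen. The FPKM values were not used here. The sequence of Pmaip1 and the values of 1 gene that this rule names are not reported here.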

Additional observations from a re-analysis of the deposited data

Results flagged for a closer look

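For 8 members the effect of JQ1 differed with and without LPS, by the DESeq2 test of the difference of the log2 effects. The same test passed for 40.3% of all 13046 genes tested. The difference was 1.22 for Bcl2a1b (adjusted p = 3.77e-14), 3.61 for Bmf (1.39e-06), 0.74 for Bcl2l1 (0.00131), 0.69 for Bbc3 (0.00165) and 0.59 for Bid (6.53e-05), each higher with LPS. It was -1.19 for Bcl2l11 (2.32e-40), -0.75 for Mcl1 (1.88e-13) and -1.18 for Pmaip1 (0.00261), each lower with LPS. JQ1 lowered Bcl2a1b and Bcl2l1 without LPS (log2 -2.49 and -0.77), and with LPS their values were -1.27 and -0.03. The near-identical copies Bcl2a1d and Bcl2a1a did not pass this test. For IL-10 the effect differed for Bcl2l1 (-0.68, adjusted p = 0.016) and Bcl2l11 (-0.30, 0.0107), both lower with LPS, beside 6.6% of 12087 genes tested. The JQ1 and IL-10 values share the unstimulated and LPS libraries. The differences for Mcl1 and Pmaip1 with JQ1 were lost with totals and by limma, and both IL-10 differences were lost when any of several single libraries was left out.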

How the results depend on the processing

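Of the alternatives for single members, 1530 kept their side of the threshold, 59 of them with a turn of sign where neither value was called, 71 lost the call, 17 gained it and 11 turned the sign of a value called in at least 1 of the fits compared. Among these 11 were, with total-count scaling, Bax with LPS (-0.57), with LPS in JQ1-treated cells (-0.12), with LPS in IL-10-treated cells (-0.37) and in the JQ1 difference with and without LPS (0.46), and by limma on TPM for the same 4 (-0.43, -0.025, -0.29 and 0.40). The others, with totals, were Bcl2l1 with JQ1 during LPS (0.35), Mcl1 with LPS in JQ1-treated cells (-0.026) and Bcl2l11 with LPS in IL-10-treated cells (-0.077). For IL-10 during LPS, 4 members were called in the full fit, 2 by limma and 1 with only the groups compared, where Bmf had no adjusted p, and the genes called there numbered 1093, against 1947. Leaving out 1 library gave 2 to 4 members, the fewest without LPS replicate 3 or LPS + IL-10 replicate 2. For JQ1 without LPS, 3 members were called with totals and 3 by limma, against 5. For LPS in JQ1-treated cells, leaving out 1 library gave 7 to 9 members, against 9. For IL-10 without LPS, 365 genes were called in the full fit, 230 by edgeR, 192 by limma and 172 to 368 without 1 library, the fewest without IL-10 replicate 1. The members called there were 1 in the full fit, 2 with only the groups compared, 2 with a lane term, 0 by edgeR and 0 by limma (2 and 3 at an unadjusted p under 0.05), and 0 to 3 without 1 library, 0 without unstimulated replicate 3 (2 at an unadjusted p under 0.05 in DESeq2) and 3 without unstimulated replicate 1. For the IL-10 difference with and without LPS, 2 members were called, 1 with totals, 1 by edgeR, 1 by limma, and 0 to 3 without 1 library, 0 without LPS + IL-10 replicate 2 (2 at an unadjusted p under 0.05 in DESeq2). The cause was not tested.

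With the replicate number as a block, 1 member call changed, Bcl2l11 with LPS in JQ1-treated cells (log2 -0.14, adjusted p = 0.0595), where 8 members were then called in place of 9. The block changed no other member call.

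Calls of scarce genes are limited by depth: Bmf with LPS rests on 5 counts in 3 libraries, and Pmaip1 and Bcl2 hold under 100 normalised counts in each LPS library. With 3 libraries a group, a difference that missed the threshold is not shown to be absent.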
